A study of Mus musculus with 2 samples.

Results

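Calpains are a family of cysteine proteases, and calpastatin (Cast) is the protein inhibitor of the conventional, calcium-dependent ones. This account covers 8 genes of that system, Capn11, Capn1, Capn2, Capn5, Capn7, Capn10, Capn15 and Cast, taken by their Ensembl identifiers from the 32285 gene rows of 2 single-nucleus RNA-seq count tables from mouse thalamus. All 8 had a row. Capn11 had been picked because its counts were higher after injury in these same libraries, so its difference between them is a description of what chose it, and no test is attached to it.

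The sham library came from mice given a burr hole without ablation. The injury library came from mice after cortical ablation injury (CAI), in which sensory-motor cortex is removed by aspiration. Both were made from female C57BL/6J mice, 3 months of age at surgery, and each pooled equal numbers of nuclei from 4 mice, taken from the thalamus on the operated side on day 21. No sample differed in genotype, both groups underwent surgery, and the mice within a pool cannot be separated, so each group had 1 replicate. Every interval below is at 95% and covers counting error only, not the spread between mice, so a difference that clears its interval is a difference between these libraries.

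Conventional calpains cut their substrates at a limited number of sites when calcium rises, and overactive calpain is a well-known feature of injured axons and of excitotoxic neurons, where spectrin and neurofilaments are cleaved. Capn1 and Capn2 encode the catalytic subunits of the mu-calpain and m-calpain enzymes, which pair with the small subunit encoded by Capns1 and are held back by calpastatin. Capn11 encodes a calpain of the same conventional domain layout, described mainly from testis. Transcript counts do not measure the activity of these proteases, which for the conventional calpains is set by calcium and by calpastatin.

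The filtered libraries comprised 16373 sham and 21777 injury nuclei, at medians of 7190 and 6810 unique molecular identifiers (UMIs, each a counted RNA molecule), and 101 cell barcodes occurred in both libraries. Clustering without the family genes gave 31 clusters. Of these, 19 were neuron clusters that reached 50 nuclei per library and 4 were glia. The glutamatergic class held 16 clusters with 11642 sham and 12151 injury nuclei, and the GABAergic class 2 clusters with 2152 and 3692. The last of the 19, cluster 22, expressed Slc17a6 but had the endothelial gene Flt1 among its 10 leading genes and was described by number only. Clusters were matched to thalamic neuron types by marker genes. Clusters 1, 4, 11, 13, 20 and 24 carried at least 3 relay neuron markers and are called relay-like, clusters 7, 9 and 14 are habenula-like, and cluster 10, with Six3 and Pvalb, is reticular-like. Cluster 10 carried 4 reticular markers, the minimum used for this type, which was set after the clusters were seen. Cluster 0 was GABAergic and carried 3 of them, Six3, Meis1 and Ecel1, but not Pvalb, and with Pax6, Gata3 and Lhx1 among its leading genes it remained unnamed.

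Of the 8 genes, 7 had an entry among the RefSeq promoters of GRCm38.p6, which span 250 bases before and 50 bases after a transcript start. Capn5 had none. The windows of Capn11 and Capn2 are shown because Capn11 was higher in the injury library in both neuron classes and Capn2 in astrocytes. Capn11 lies at chr17:45630204-45659325 on the minus strand, and its window is chr17:45659260-45659559. Capn2 lies at chr1:182467260-182517608 on the minus strand, and its window is chr1:182517561-182517860. Both are printed 5′ to 3′ on the strand of the gene. Capitals mark the GC box GGGCGG in Capn11 and a match to the AP-1 motif TGANTCA in Capn2.
Capn11 promoter: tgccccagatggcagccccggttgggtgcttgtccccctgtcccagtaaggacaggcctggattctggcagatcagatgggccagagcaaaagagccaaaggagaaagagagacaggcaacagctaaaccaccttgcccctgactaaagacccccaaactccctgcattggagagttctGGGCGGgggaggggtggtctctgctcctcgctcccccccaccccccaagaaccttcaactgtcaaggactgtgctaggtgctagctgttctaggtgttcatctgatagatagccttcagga
Capn2 promoter: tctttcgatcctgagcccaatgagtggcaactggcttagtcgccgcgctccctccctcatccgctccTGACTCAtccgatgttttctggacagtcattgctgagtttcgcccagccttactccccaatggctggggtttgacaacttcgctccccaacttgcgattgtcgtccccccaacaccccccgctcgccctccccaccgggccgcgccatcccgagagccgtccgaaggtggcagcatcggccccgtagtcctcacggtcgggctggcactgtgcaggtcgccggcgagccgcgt
The promoters differed in composition. The Capn11 window held 57.3% G and C but only 3 CpG sites, an observed over expected ratio of 0.122, whereas the Capn2 window held 64.3% G and C and 27 CpG sites, a ratio of 0.911. Over 32851 promoters the medians were 52.7% and 0.384, which put Capn11 at percentile 16.6 for CpG ratio and Capn2 at percentile 88.2. Searched on both strands, GGGCGG was present in 35.7% of all promoters and TGANTCA in 7.81%. The TATA box TATAAA and the cyclic AMP response element TGACGTCA, present in 13.6% and 1.79% of promoters, had no match in either window. Such matches are letters in a window and not evidence of binding.

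Capn11 was a rare transcript in sham thalamus and was higher in the injury library in both neuron classes. Over all kept nuclei it had 150 UMIs in the sham library and 1012 in the injury library, or 1.09 CPM (the UMIs of a gene scaled by the UMI total of the group; interval 0.924 to 1.28) against 5.65 (5.31 to 6.01). The injury level was 5.18 times the sham level, a log2 ratio of 2.37 (2.12 to 2.63). Counts in glutamatergic neurons were 109 and 636 UMIs, and the level went from 1.02 CPM in sham to 5.46 in injury, which is 2.41 (2.12 to 2.72) on the log2 scale. GABAergic neurons had 31 and 173 UMIs, 2.12 and 6.90 CPM, a log2 ratio of 1.70 (1.14 to 2.30). Both classes therefore had clearly separated counting intervals, and Capn11 was the only one of the 8 genes whose log2 ratio reached 1 in either class. Among all genes with at least 20 UMIs, 1.86% of 21764 in glutamatergic and 2.53% of 17942 in GABAergic neurons were higher by that much, and 0.487% and 0.663% were lower by as much, with none of the 8 genes among them.

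Most nuclei with Capn11 had a single UMI. In the sham library 147 nuclei (0.898%, exact binomial interval 0.759 to 1.05) had at least 1 Capn11 UMI, and in the injury library 951 (4.37%, 4.1 to 4.65). Only 2 sham nuclei but 57 injury nuclei had 2 or more, and the highest count in a nucleus was 3 in both libraries. The difference between the libraries was thus not carried by a few nuclei with many UMIs. At this depth, more nuclei holding the transcript and more transcript in each nucleus would both appear as more nuclei with 1 UMI. They cannot be told apart here. Nuclei called doublets made up 14.97% of the Capn11-positive nuclei in sham and 24.7% in injury, against 13.5% and 17.6% of all nuclei. This was not particular to Capn11. For the other family genes the shares of positive nuclei ran from 17.7 to 18.9% in sham and from 22.2 to 25.5% in injury.

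The observed CPM of Capn11 was higher in the injury library in all 19 neuron clusters, although in cluster 27 a sham count of 0 allows a level above that of injury. The counting interval of the log2 ratio lay above 0 in 15 of them, and in 18 it held the ratio over all nuclei, 2.37. Of 15104 genes with at least 200 UMIs in injury neurons, 109, or 0.722%, had a higher observed CPM in all 19 clusters, Capn11 included. Capn11, with 141 sham and 831 injury UMIs over these clusters, passed that filter only through the injury library. It was also chosen on this contrast, so the share is description and no support. In 16 of the 19 clusters the injury level exceeded the highest sham level of any cluster, 3.36 CPM in cluster 10. A higher observed level was thus not limited to particular neuron types, though the size of the difference and the injury level varied. The interval of the ratio did not clear 0 in the reticular-like cluster 10, in the relay-like clusters 20 and 24 and in cluster 27.

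**Figure D1:**
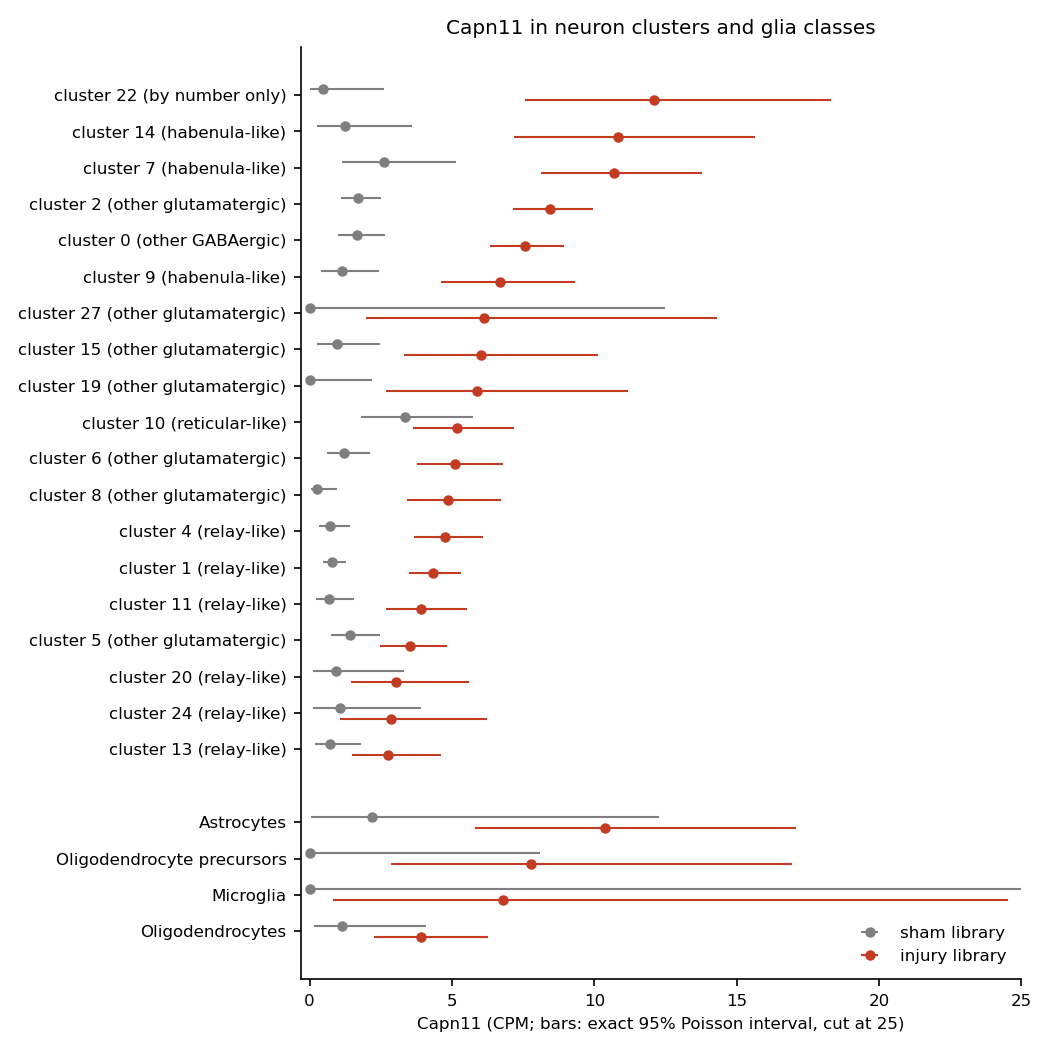
Capn11 in each of 19 neuron clusters and 4 glia classes, in CPM on the horizontal axis, with grey points for the sham library, red points for the injury library and bars for the exact 95% Poisson interval. Injury points lie to the right of sham points in every row, with the narrowest gap in cluster 10 and the highest injury point in cluster 22.

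Relay-like neurons, whose axons normally reach the cortex, had an injury interval of 3.57 to 4.67 CPM, which overlapped that of the reticular-like cluster, 3.63 to 7.18, so these types cannot be ranked. The 6 relay-like clusters ranged from 2.74 CPM in cluster 13 to 4.76 in cluster 4. Cluster 1, the largest with 2017 sham and 1906 injury nuclei and with C6 and Tspear among its leading genes, had 17 and 94 Capn11 UMIs, 0.803 and 4.34 CPM, a log2 ratio of 2.43 (1.68 to 3.27). Cluster 4, marked by Prkcd, had 8 and 64 UMIs and a log2 ratio of 2.72 (1.66 to 3.99). In clusters 20 and 24 the counts were 2 and 10 and 2 and 6 UMIs, and their intervals included 0. Without doublets the log2 ratio moved from 1.96 to 2.59 in cluster 13 and from 1.40 to 0.81 in cluster 24. Summed over the 6 clusters, Capn11 went from 38 to 220 UMIs, 0.770 to 4.09 CPM, a log2 ratio of 2.41 (1.91 to 2.95).

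Habenula-like neurons had higher Capn11 in the injury library than relay-like neurons. The 3 clusters together had 17 and 121 UMIs, 1.57 CPM in sham and 9.17 (7.61 to 10.9) in injury, and this injury interval did not meet that of relay-like neurons (3.57 to 4.67). Their log2 ratio of 2.55 (1.81 to 3.37) was nevertheless close to that of relay-like neurons, and the intervals of the ratios overlapped widely. Cluster 7, with Chat and Ano1, reached 10.7 CPM from 8 and 59 UMIs, and cluster 14, with Tac2, 10.8 from 3 and 28 UMIs. The highest level, 12.1 CPM (7.58 to 18.3), was in cluster 22, with 1 sham and 22 injury UMIs. Its log2 ratio of 4.68 (2.06 to 10.1) rests on that UMI, and without doublets no sham UMI remained and the ratio was at least 3.02 from the floor. Neighbours in this order, clusters 22, 14 and 7, had overlapping intervals and cannot be ranked.

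The reticular-like cluster had the highest observed sham level of the 19, on few UMIs. It had 13 sham UMIs, from 11 nuclei, and 36 injury UMIs, 3.36 CPM (1.79 to 5.74) and 5.19 (3.63 to 7.18). That sham interval overlapped those of cluster 0 (0.995 to 2.65) and habenula-like neurons (0.914 to 2.51), so these cannot be ranked. It did not meet that of relay-like neurons (0.545 to 1.06). The log2 ratio of the reticular-like cluster, 0.63 (-0.32 to 1.67), was the smallest of the 19, and its interval alone did not hold 2.37. The other GABAergic cluster, cluster 0, had 18 and 137 UMIs and a log2 ratio of 2.17 (1.46 to 2.97), near the glutamatergic value. Among the unnamed glutamatergic clusters, cluster 2, with Sim1, Lmx1a and Ebf3, had 25 and 145 UMIs, 1.70 and 8.46 CPM. Cluster 8, with Nox4, had 2 and 37 UMIs and a log2 ratio of 4.22 (2.26 to 7.32). Clusters 19 and 27 had 0 Capn11 UMIs in sham against 9 and 5 in injury. A sham count of 0 in cluster 19 allows up to 1.79 CPM at a floor of 3 UMIs, so its observed injury level was at least 3.28-fold higher than this floor. With the counting error of the injury UMIs, the log2 ratio was at least 1.11, and without doublets the bound from the floor was 1.16 on the log2 scale in place of 1.71. In cluster 27, with 72 sham nuclei, the floor of 10.1 CPM exceeded the injury level of 6.13 and no fold is given.

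The order of neuron types depended on the unit. Relay-like nuclei held more RNA than habenula-like nuclei, with a median of 9876 UMIs in injury nuclei of cluster 1 and 5234 in cluster 7. Counted per 100 nuclei, injury Capn11 was 4.80 UMIs (interval 4.18 to 5.47) in relay-like, 5.57 (4.62 to 6.66) in habenula-like, 4.79 (4.02 to 5.67) in cluster 0 and 4.32 (3.02 to 5.98) in reticular-like neurons. All of these intervals overlapped, unlike those of the CPM levels. Sham values were 0.864, 0.911, 1.07 and 2.73 UMIs per 100 nuclei in the same order.

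**Figure D2:**
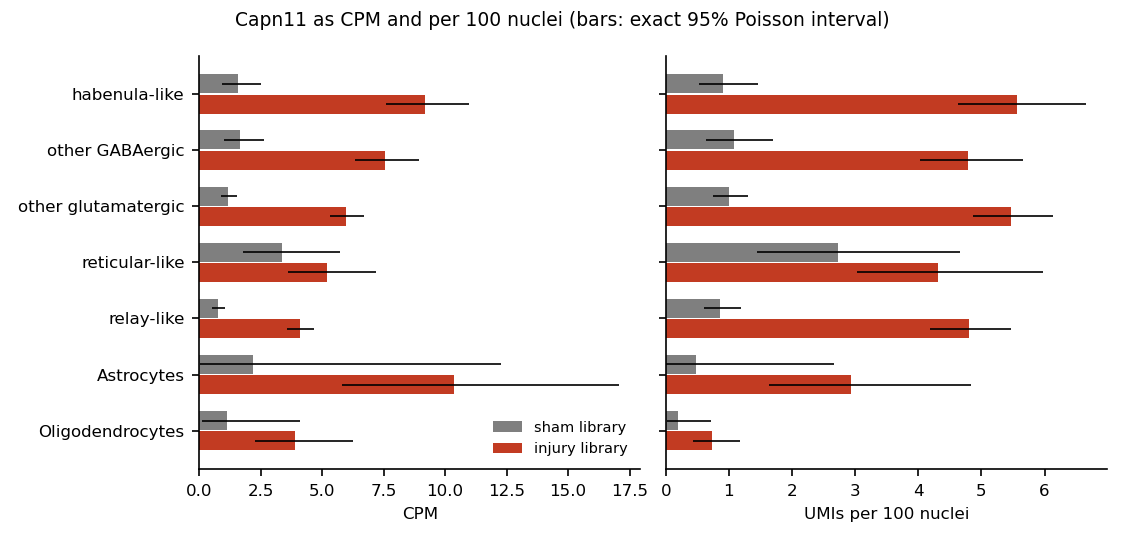
Capn11 in groups of neuron clusters, astrocytes and oligodendrocytes, as CPM (left) and UMIs per 100 nuclei (right), grey for sham and red for injury, with exact 95% Poisson intervals. Injury bars of the 5 neuron groups range from 4.09 to 9.17 CPM but from 4.32 to 5.57 per 100 nuclei. Cluster 22 is in none of these groups.

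Glia carried Capn11 at CPM levels like those of neurons. Oligodendrocytes had 2 and 17 UMIs, 1.13 and 3.91 CPM, a log2 ratio of 1.79 (-0.28 to 4.95). Astrocytes had 1 and 15 UMIs, 2.20 and 10.4 CPM, with an interval from -0.47 to 7.63. Oligodendrocyte precursors went from 0 to 6 UMIs and microglia from 0 to 2. No glia class alone cleared its interval at this depth. The observed CPM was higher in injury in all 4, but the 30 sham microglia, at 0 UMIs, allow up to 53.7 CPM, above the 6.79 of injury microglia. Of the 15104 genes, which were filtered on injury UMIs alone, 46 (0.305%) had a higher observed CPM in all 19 neuron clusters and all 4 glia classes. Capn11 was among them, and this share too is description only.

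Free RNA in droplets can put neuronal transcripts into glial nuclei, and neuronal genes were therefore measured in the same glia. In the injury library the level of Slc17a6, the vesicular glutamate transporter of thalamic neurons, was 13.6% of the neuronal level in oligodendrocytes (interval 10.7 to 17.0) and 7.60% in astrocytes (4.15 to 12.7). The summed level of Snap25, Syt1, Rbfox3, Meg3 and Rbfox1 was 8.58% and 7.21%. For Capn11 the same figure was 68.4% (39.8 to 109) in oligodendrocytes and 181% (101 to 299) in astrocytes. Oligodendrocyte precursors and microglia, on 6 and 2 Capn11 UMIs, were at 136% (49.98 to 296) and 119% (14.4 to 429), with Slc17a6 at 11.2% and 29.4% and the 5 summed genes, some of which these glia may express, at 30.4% and 34.4%. In the sham library, on 0 to 2 Capn11 UMIs a class, the Capn11 interval ran from 11.8 to 353% in oligodendrocytes and from 4.82 to 1060% in astrocytes. The part of free RNA in the Capn11 of glia was not tested.

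Shares of positive nuclei were compared at equal depth. With counts as deposited, 0.928% of sham and 4.97% of injury glutamatergic nuclei had a Capn11 UMI, at medians of 7974 and 8217 UMIs, and 1.35% and 4.31% of GABAergic nuclei did, against 0.199% and 0.732% of oligodendrocytes at 1552 and 1657 UMIs. After thinning each nucleus to 2000 UMIs, which left out 180 sham and 203 injury glutamatergic nuclei and 714 and 1512 oligodendrocytes, the shares were 0.305% (0.213 to 0.424) and 1.27% (1.08 to 1.49) in glutamatergic neurons. GABAergic neurons, after leaving out 124 and 129 nuclei, had 0.542% (0.271 to 0.968) and 1.63% (1.24 to 2.10). In oligodendrocytes they were 0 of 291 sham nuclei, which allows up to 1.26%, and 0.989% (0.428 to 1.94) of injury nuclei. At equal depth, injury oligodendrocytes and glutamatergic neurons had overlapping intervals.

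The injury library also held 3 neuron clusters with fewer than 50 sham nuclei. Cluster 25, with Neurod6, Neurod2 and Tbr1, and cluster 28, with Prox1, Dsp and C1ql2, carried markers of cortical and dentate granule neurons and contained no sham nuclei. Cluster 21 was GABAergic, with Ano2 and Prdm16, and held 3 sham nuclei. Capn11 reached 2.53 CPM (1.15 to 4.79) in cluster 25, 2.15 (0.444 to 6.29) in cluster 28 and 1.79 (0.771 to 3.52) in cluster 21. The intervals of clusters 25 and 21 lay below those of glutamatergic (5.05 to 5.91) and GABAergic neurons (5.91 to 8.01) in the same library, and that of cluster 28 overlapped both. With so few sham nuclei, a cell type and a library cannot be told apart here.

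Genes at least as broadly higher as Capn11 were listed for comparison, with its own count of 15 of the 19 neuron clusters as the cutoff. Counting intervals lay above 0 in at least 15 clusters for 62 genes, Capn11 included. As Capn11 set the cutoff and was chosen on this contrast, its place among them is description only. Over the 19 clusters together Capn11 had the largest log2 ratio of these genes, 2.34 (2.08 to 2.61). The next were Creb5 at 1.30 (1.22 to 1.38), Prr5l at 1.28 (1.16 to 1.39) and Mobp at 1.20 (1.07 to 1.33). Other genes had more such clusters at smaller ratios, such as Gm42418 at 0.60 with 19 clusters and the mitochondrial gene mt-Nd2 at 0.70 with 16. The number of clusters that clear 0 depends on the UMIs of a gene. Gm42418 had 117268 sham UMIs, mt-Nd2 1460 and Capn11 141, and each had a higher observed CPM in all 19 clusters. Prr5l was the first leading gene of the oligodendrocyte cluster, and Mobp and Mbp, which is at 0.74 (0.68 to 0.80), are myelin genes of oligodendrocytes, and oligodendrocytes made up 6.14% of sham and 10.7% of injury nuclei. Astrocyte markers in glutamatergic neurons differed among themselves. Gfap had 16 and 164 UMIs there, a log2 ratio of 3.23 (2.48 to 4.07), Aqp4 was at 0.79 (0.45 to 1.14) and Slc1a2 at -0.03 (-0.05 to -0.003). The part of free RNA from glia in neuronal Capn11 was not tested.

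**Figure D3:**
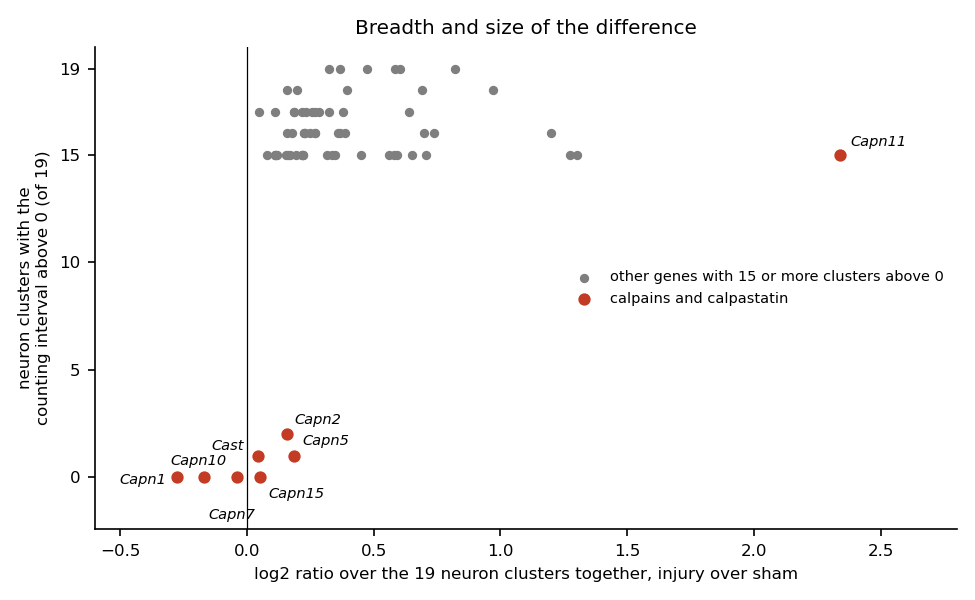
Log2 ratio over 19 neuron clusters together (horizontal axis) against the number of those clusters whose counting interval lies above 0 (vertical axis), with grey points for genes at 15 or more clusters and red points for the 8 family genes. Capn11 stands alone at the right at 2.34, and the other 7 family genes lie near 0 on the horizontal axis with at most 2 clusters.

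The genes whose pattern was most like Capn11 were ranked by Pearson's r of log2(CPM + 1) over 38 points, the 19 clusters in both libraries. They were Xlr5a, a gene of a multicopy X-linked family whose reads may be split between copies (r = 0.87), Cmss1 (0.86), the cytokine receptor gene Il31ra (0.83), Rptor, which encodes a scaffold of the mTORC1 complex (0.81), and Gm15564 (0.80). All but Il31ra were higher in injury in 19 of 19 clusters, with log2 ratios of 1.38 for Xlr5a, 0.82 for Cmss1, 0.27 for Rptor and 0.71 for Gm15564, and Il31ra was at 0.66 with 18 clusters. Points of a library share its depth and preparation. Within the 19 injury points r was 0.55 for Xlr5a, 0.54 for Cmss1, 0.32 for Il31ra, 0.61 for Rptor and 0.09 for Gm15564. Within the 19 sham points it was 0.56, 0.32, 0.71, 0.63 and 0.24 in the same order. The other family genes had r between -0.37 for Capn1 and 0.33 for Cast over the 38 points, and between -0.54 for Capn1 and 0.53 for Capn15 within injury, where Cast was at 0.52, close to the values of Xlr5a and Cmss1 there.

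No annotated gene overlapped Capn11, and its neighbours did not share its difference. Tmem63b, on the same strand with 845 bases between, had 9566 and 11793 UMIs in neurons of both classes and a log2 ratio of 0.08 (0.04 to 0.11). On the other side Slc29a1, a nucleoside transporter gene, was at -0.20 (-0.26 to -0.14), and Mymx had 5 and 3 UMIs. Gm16172 was at -0.04 (-0.30 to 0.21) and Mrpl14 at 0.02 (-0.11 to 0.16). Capn11 in the same neurons was at 2.30 (2.04 to 2.57). The small nuclear RNA gene Gm25008 was not analysed here.

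Injury nuclei with a Capn11 UMI were set beside those without one. As 894 of the 951 positive nuclei had a single UMI, nuclei counted as negative may hold transcript that was not detected, and similar values in both say little. In glutamatergic clusters, 604 positive nuclei, with a median of 9530 UMIs, were compared with 11547 negative nuclei of the same clusters, with a median of 8154. Over 10377 genes the ratio of observed to expected UMIs in positive nuclei had a median of 0.996, with 0.860 and 1.18 at the 5th and 95th percentiles. The family genes lay between 0.928 for Cast (0.778 to 1.10) and 1.04 for Capn5 (0.829 to 1.29). The axonal neurofilament genes Nefl and Nefh were at 1.18 (0.962 to 1.44) and 1.19 (0.912 to 1.53). Cnbd1 at 10.5 and Gm11867 at 3.16, both on chromosome 4, were highest, but 103 Cnbd1 UMIs came from 4 nuclei, 43 of them from 1 nucleus, and 67 of 203 Gm11867 UMIs from 1 nucleus. The other 8 of the 10 highest genes were between 1.52 and 1.69.

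The conventional calpains moved little in neurons. Capn2, the m-calpain subunit, had 4233 and 5032 UMIs in glutamatergic neurons, 39.8 CPM in sham and 43.2 in injury, a log2 ratio of 0.12 (0.06 to 0.18). It was higher in 17 of 19 clusters, and the interval cleared 0 in the relay-like clusters 1, at 0.31 (0.16 to 0.47), and 4, at 0.21 (0.02 to 0.40). Capn1, the mu-calpain subunit, had 893 and 840 UMIs, 8.40 and 7.22 CPM, a log2 ratio of -0.22 (-0.36 to -0.08). Its interval lay below 0 in cluster 8, at -0.88 (-1.42 to -0.36), and in cluster 0, at -0.69 (-1.32 to -0.06), and above 0 in 0 of the 19 clusters, and habenula-like neurons were at 0.67 (-0.21 to 1.61) on 17 and 33 UMIs. In GABAergic neurons Capn2 was at 0.11 (-0.01 to 0.23) and Capn1 at -0.26 (-0.77 to 0.27). Capns1, the shared small subunit, was at -0.17 (-0.27 to -0.08) in glutamatergic and 0.11 (-0.10 to 0.33) in GABAergic neurons.

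The inhibitor calpastatin did not differ beyond its interval in either neuron class. Cast had 2179 and 2517 UMIs in glutamatergic neurons, 20.5 and 21.6 CPM, a log2 ratio of 0.08 (-0.01 to 0.16), and in GABAergic neurons it was at -0.08 (-0.29 to 0.13). Cluster 4, the Prkcd relay-like cluster, was the only one of 19 in which the interval cleared 0, with 153 and 270 UMIs and a log2 ratio of 0.54 (0.25 to 0.84).

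Among the other calpains, Capn10 was modestly lower in glutamatergic neurons. This gene, a non-classical calpain without the calcium-binding penta-EF domain, had 2259 and 2152 UMIs in glutamatergic neurons, 21.2 and 18.5 CPM, a log2 ratio of -0.20 (-0.29 to -0.11). It was lower in 14 of 19 clusters, and the interval lay below 0 in 5, the relay-like clusters 4, 11 and 13, the habenula-like cluster 9 and cluster 6. Summed over relay-like clusters the counts were 1151 and 1060 UMIs, at -0.24 (-0.36 to -0.12), and over habenula-like clusters 229 and 223 UMIs, at -0.32 (-0.60 to -0.05). The unnamed glutamatergic clusters together were at -0.12 (-0.25 to 0.02), which overlapped both, and cluster 22 was at -0.44 (-1.16 to 0.26). Capn10 was at -0.04 (-0.28 to 0.20) in cluster 0 and 0.34 (-0.14 to 0.85) in the reticular-like cluster. Capn7, a calpain with microtubule-interacting and trafficking domains that binds ESCRT-III, was at -0.08 (-0.13 to -0.03) in glutamatergic neurons and its interval lay below 0 in clusters 4, at -0.35 (-0.53 to -0.17), and 15, at -0.40 (-0.76 to -0.05). Capn5 was at 0.12 (0.01 to 0.23), and Capn15, the mouse relative of the fly small optic lobes gene, at 0.02 (-0.03 to 0.07). The observed CPM of Capn5 was higher in 16 of 19 clusters, with the interval above 0 in 1. In GABAergic neurons Capn5 was at 0.22 (-0.01 to 0.45), Capn7 at -0.09 (-0.19 to 0.02) and Capn15 at 0.07 (-0.04 to 0.18). None of these 4 genes reached a log2 ratio of 0.25 in glutamatergic neurons, a size that 17.6% of genes passed upwards and 13.8% downwards.

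**Figure D4:**
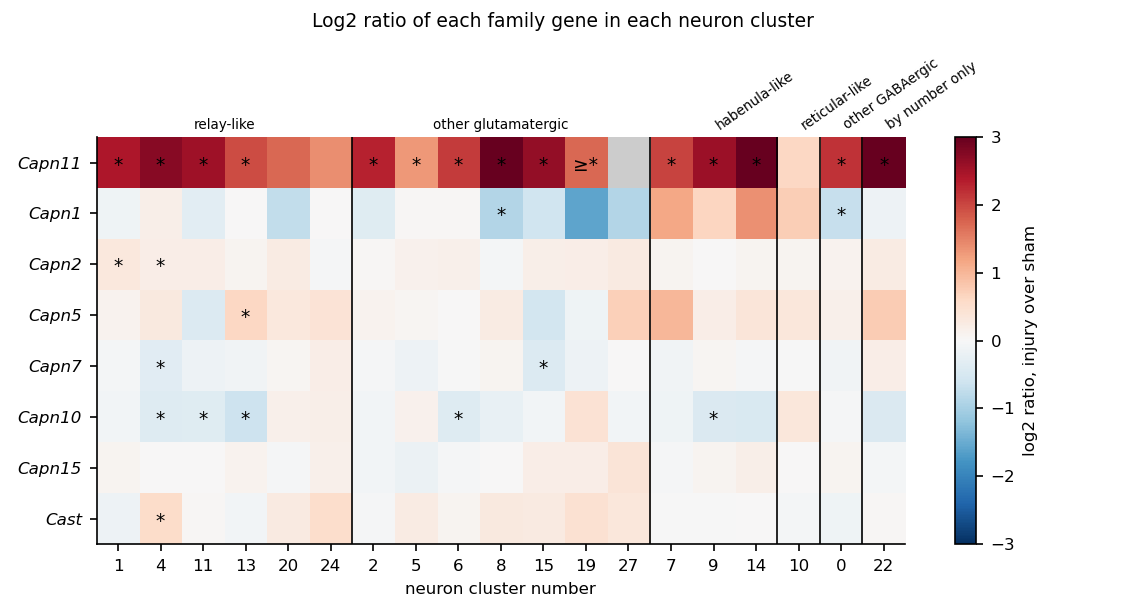
Log2 ratio, injury over sham, of each of the 8 genes (rows) in each of 19 neuron clusters (columns, grouped by neuron type), with red for higher and blue for lower in injury. An asterisk marks an interval that excludes 0, the sign ≥ a lower bound from 0 sham UMIs and grey a cell with no fold. The Capn11 row is red throughout apart from cluster 27, which has no fold. The other rows hold both red and blue with few asterisks, and Capn1 ranges from -1.57 to 1.37.

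Several of these genes share their place with another gene on the opposite strand, and whether counting used the strand is not given in the sources used here. That applies to Capn1 with Gm10814, Capn7 with Sh3bp5, Capn10 with 9430060I03Rik, Cast with Erap1, Capn2 with Gm37885 and Gm37069, Capn15 with Gm26694 and D630044L22Rik, and Capn5 with Gm16938. Omp overlaps Capn5 and Gm6296 overlaps Cast on the same strand. The values of these family genes may hold reads of the genes that overlap them.

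Among the 8 genes, Capn2 in astrocytes was the one whose interval cleared 0 in a glia class. Astrocytes had 33 Capn2 UMIs in 209 sham nuclei and 248 in 512 injury nuclei, 72.7 CPM (50.1 to 102) against 171 (151 to 194). The injury level was 2.36 times the sham level, a log2 ratio of 1.24 (0.71 to 1.81), in a class where 4.80% of 9410 genes were at least 1 log2 unit higher and 3.19% at least 1 lower. At 2000 UMIs per nucleus, 11.5% of 96 sham and 24.8% of 347 injury astrocytes had a Capn2 UMI, with intervals of 5.86 to 19.6 and 20.3 to 29.7. Oligodendrocytes, with 62 and 169 Capn2 UMIs, were at 0.15 (-0.28 to 0.59). The small subunit gene Capns1 was at -0.65 (-1.23 to -0.05) in oligodendrocytes, on 42 and 66 UMIs, where 28.0% of genes were lower by at least 0.25.

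Astrocyte markers differed alongside Capn2. Gfap, the intermediate filament gene known for its induction in reactive astrocytes, had 4 and 560 UMIs in the same nuclei, 8.81 and 387 CPM, and the water channel gene Aqp4 was at 0.89 (0.57 to 1.22) on the log2 scale. Gja1, which encodes a gap junction connexin, was at -0.54 (-0.82 to -0.24). The 6 astrocyte markers summed differed by only 0.17 (0.11 to 0.24). Astrocytes made up 1.28% of sham and 2.35% of injury nuclei.

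The remaining 7 genes were within their intervals in glia. In astrocytes Cast had 2 and 24 UMIs, for a log2 ratio of 1.91 (-0.10 to 5.04), and Capn15 22 and 102, a log2 ratio of 0.54 (-0.14 to 1.28). In microglia, the resident immune cells, with only 30 sham and 164 injury nuclei, Capn15 had 2 and 36 UMIs, at 1.77 (-0.19 to 4.87), a ratio that moved to 1.23 without doublets and to 3.61 from the mean CPM of single nuclei, where 12.6% of 3983 genes were higher and 7.48% lower by at least 1. Capn5 was seen mainly in oligodendrocytes and their precursors among glia. It had 90 and 212 UMIs in oligodendrocytes, 50.9 and 48.8 CPM, at -0.06 (-0.42 to 0.31), 10 and 24 UMIs in precursors, 21.97 and 31.2 CPM, and 1 and 3 UMIs in astrocytes. No family gene with at least 20 UMIs was higher or lower by a log2 ratio of 1 in oligodendrocytes, where 2.21% of genes were higher and 1.76% lower, or in their precursors, where 3.05% were higher and 2.5% lower. Capn11 was under that minimum in both, with 2 and 17 UMIs in oligodendrocytes, at 1.79 (-0.28 to 4.95), and 0 and 6 in precursors.

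**Figure D5:**
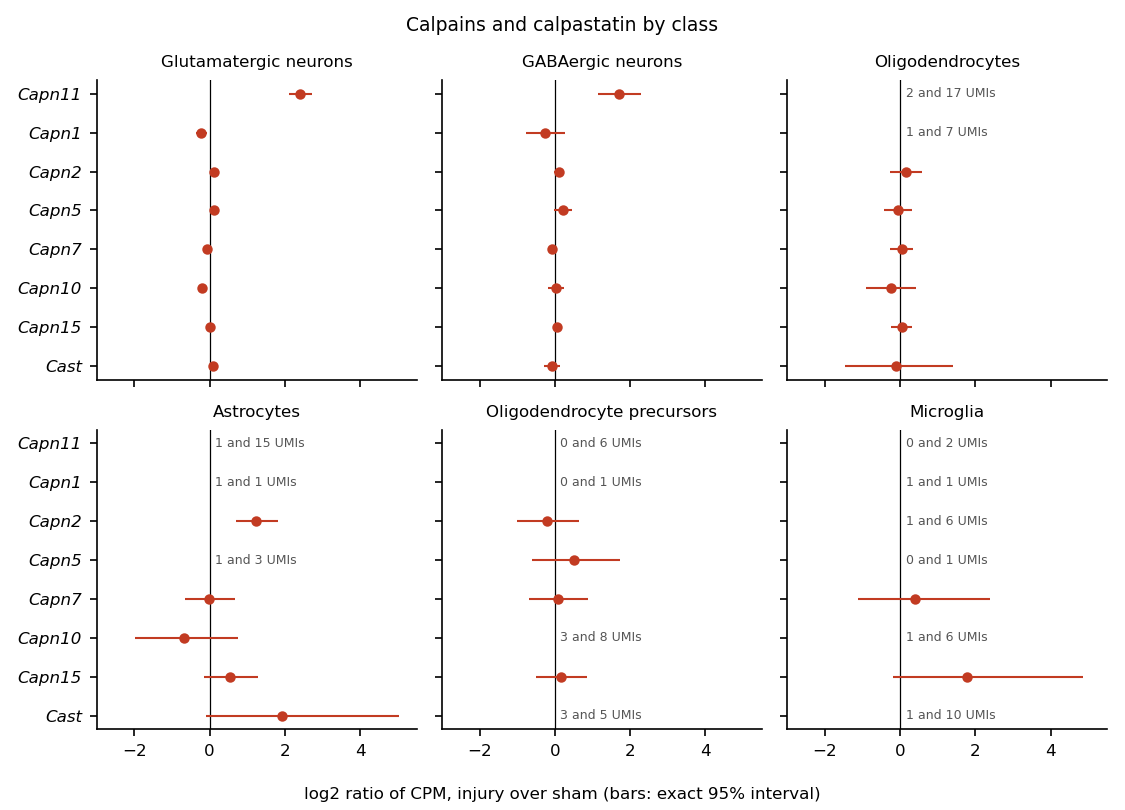
Log2 ratio, injury over sham, of the 8 genes in 6 classes of nuclei, with exact 95% intervals, and with the sham and injury UMI counts in place of a point where both together were under 20 or sham had 0. Points far from 0 with intervals that exclude it are Capn11 in both neuron classes and Capn2 in astrocytes.

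The rest of the calpain family varied widely in counts. In glutamatergic neurons Capns1 had 1827 and 1777 UMIs and Capn3 856 and 1032, whereas Capns2 had 4 and 7. Of 9 further genes, 8 had a row and 7 had at least 20 UMIs in glutamatergic neurons, where 3 were higher by at least 0.25 on the log2 scale and 0 lower, beside 17.6% and 13.8% of all genes. Capn12 was at 0.40 (-0.17 to 0.98) on 45 and 65 UMIs, Capn3, the muscle calpain, at 0.14 (0.01 to 0.27), and Capn6, which lacks the active-site cysteine, at 0.03 (-0.13 to 0.19). Capn9 had 7 and 19 UMIs, at 1.31 (-0.0027 to 2.803), the only one of them whose log2 ratio reached 1, and Capn13 had 16 and 21. Microglia held Capn3, with 20 and 67 UMIs, at -0.65 (-1.39 to 0.15). Capn14 was not analysed here.

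Genes of known calpain substrates mostly differed by small ratios in glutamatergic neurons. Of 16, 1 was higher and 1 lower by at least 0.25 in glutamatergic neurons, where 17.6% of all genes were higher and 13.8% lower, with a median log2 ratio of 0.05 beside 0.01 over all 21764 genes. The NMDA receptor subunit gene Grin2a was at 0.29 (0.28 to 0.30) and Cdk5r1, the p35 activator of Cdk5, at -0.30 (-0.37 to -0.23). Nefl was at -0.24 (-0.34 to -0.14) and Nefm at -0.20 (-0.27 to -0.12). Smaller ratios also cleared 0 in both directions, such as Grin2b at 0.14 (0.13 to 0.15), Ank3 at 0.11 (0.10 to 0.12) and Ctnnb1 at -0.12 (-0.16 to -0.07). In GABAergic neurons 0 of 16 were higher, where 20.6% of all genes were, and 4 lower, with Cdk5r1 at -0.44 (-0.68 to -0.21) and Nefl at -0.42 (-0.66 to -0.19), where 14.7% of all genes were lower by that much.

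Axon injury genes lay on both sides of 0. Of 12, 11 had at least 20 UMIs in glutamatergic neurons, 2 were higher and 3 lower by at least 0.25, beside 17.6% and 13.8% of all genes, and the median log2 ratio was -0.15 against 0.01 over all genes. The injury transcription factor gene Atf3 had 11 and 12 UMIs. Ecel1 was at 0.42 (0.14 to 0.71), Jun at 0.30 (0.13 to 0.48), Sox11 at -0.41 (-0.48 to -0.33) and Gadd45a at -0.44 (-0.96 to 0.08). In GABAergic neurons 2 of 10 were higher and 3 lower, beside 20.6% and 14.7% of all genes, with the calcium channel subunit gene Cacna2d1 at 0.53 (0.46 to 0.60) and Jun at -0.60 (-1.0 to -0.20).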

How the data were processed

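Thalamic nuclei were profiled as 1 sham and 1 injury library, grouped by the treatment in the labels. The authors sorted nuclei stained with propidium iodide, built 10x Genomics 3′ libraries and counted UMIs per gene with Cell Ranger 6.0.2 against GRCm38 (mm10). The deposited tables hold raw UMI counts. Whether intronic reads or strand were used in counting is not given in the sources used here. Symbols and coordinates are from GENCODE M21.

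Nuclei with over 2% mitochondrial UMIs, under 200 genes or over 7500 genes were removed, as in the study's methods. Doublets were kept, and Scrublet (scanpy 1.11.5, expected rate 0.8% per 1000 nuclei) only marked them. Anchor-based integration used Seurat 5.3.0 under R 4.3.3 and 1995 genes without the family genes and lists, with 30 principal components and Louvain resolution 0.5, neither of which the methods state. Clusters with over 50% doublets were called mixed. Neuron clusters entered the comparisons with at least 50 nuclei in each library. Classes were named from marker lists, so they may differ from those of the study.

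UMIs were summed per class or cluster and scaled by their total (CPM). Sums carry exact Poisson intervals, shares and ratios exact binomial (Clopper-Pearson) intervals, all at 95%. With 1 library a group no test was run. A sum of 0 was bounded at a floor of 3 UMIs. Lists used genes with at least 20 UMIs and a prior of 0.5 UMI. Likeness and the counts over all 19 neuron clusters used genes with at least 200 UMIs in injury neurons. The ratio and its interval were tested on simulated Poisson counts with known folds. Those counts hold only the error that the interval assumes and no spread between mice, so they say nothing about that spread. The members, lists and alternatives were chosen with earlier results of these data known. Named genes were the 8 members, the remaining family, up to 4 genes a list with the largest log2 ratio among those with at least 50 UMIs, the 3 nearest genes on each side, the 5 genes most like Capn11 and the 10 highest in Capn11-positive nuclei. Other genes in the text were chosen after their values were seen. TMM factors used edgeR 4.0.16.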

Additional observations from a re-analysis of the deposited data

Results flagged for a closer look

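Capn11 was also higher in 3 of the clusters that no comparison used. Clusters 12 and 18, of which 99.7% and 100% of nuclei were called doublets, had 5 and 62 and 1 and 33 Capn11 UMIs, at log2 ratios of 3.13 (1.83 to 4.80) and 4.18 (1.60 to 9.52). Cluster 26, 99.6% doublets with the oligodendrocyte genes Mog and Mag, had 0 sham UMIs in 61 nuclei and 17 injury UMIs in 194, an observed level at least 2.01-fold higher than the sham floor of 3 UMIs, 1.01 on the log2 scale, with a counting interval of the ratio from 0.55 upwards. These 3 were flagged because their injury level stood above the sham level in nuclei outside the main comparisons. Clusters 17 and 30 had 0 sham against 3 and 6 injury UMIs, 6.55 and 4.78 CPM, under sham floors of 13.2 and 11.1 CPM, so no direction is given for them.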

How the results depend on the processing

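Capn11 was recomputed with no filter on nuclei, without doublets, without integration, at resolution 1.0, with TMM factors, from the mean CPM of single nuclei and with both libraries weighted to the sham mix of clusters. Its log2 ratio ranged from 2.39 to 2.43 in glutamatergic and from 1.65 to 1.93 in GABAergic neurons. The number of neuron clusters with an interval above 0 was 15 of 19 without doublets, 14 of 18 without integration and 19 of 24 at resolution 1.0, and the observed CPM of Capn11 was higher in injury in every one of these clusters. Thinning to 2000 UMIs both leaves fewer UMIs per nucleus and leaves out nuclei under that depth. It moved the share of nuclei with a Capn11 UMI to 0.305% of sham and 1.27% of injury glutamatergic neurons, 0.542% and 1.63% of GABAergic neurons, and 0% of sham oligodendrocytes. The other 305 of 310 recomputed values stayed within the counting interval of the reported one, or within 1.5 times for counts, and none changed sign where that interval excluded 0. No paired analysis was possible because only 1 pooled library stood for each group, so that no replicates could be matched. Depth limits the glia, where Capn11 rests on 2 to 17 injury UMIs a class, and clusters 20, 24 and 27, with 10, 6 and 5. Mice, surgery, dissection and library preparation cannot be told apart in 1 pool a group.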
